A study of Mus musculus with 6 samples.

Results

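The genes described here are 34 genes of glycolysis and of the response to low oxygen, measured in tumor-infiltrating CD8 T cells (TILs) and in CD8 T cells of the draining lymph node (LN). They were given as a list of names, drawn up with earlier results of these data known. All 34 were found among the 32285 genes of the count tables. The members were read in 5 groups, namely glucose uptake (2 genes), glycolytic steps (14 genes), fate of pyruvate (5 genes), oxygen sensing (4 genes) and other hypoxia targets (9 genes). The first 3 groups, 21 genes, are called glycolysis members below, and the remaining 13 genes hypoxia members.

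Glycolysis breaks glucose down to pyruvate in the cytosol, and activated CD8 T cells are known to run it at a high rate and to export the resulting lactate. Hypoxia-inducible factor (HIF) is a transcription factor whose alpha subunit is hydroxylated by oxygen-dependent enzymes and then destroyed through the Vhl protein. When oxygen is scarce the subunit persists and switches on glycolytic enzymes, lactate export and genes such as *Bnip3*, and T cell receptor signals can also raise it.

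Mice bearing tumors of B16-OVA, a mouse melanoma line that makes ovalbumin, were either controls (CD8-Cre Rosa26Tomato) or CD8-IFNγRKO (CD8-Cre IFNgR1flox/flox Rosa26Tomato). Both genotypes carried the Cre, driven by a CD8α promoter and active in mature CD8 T cells, and the Tomato reporter, and only the second carried the floxed receptor gene. Animals of both sexes aged 6 to 10 weeks were used, and tissue was taken 12 days after engraftment. Tomato-positive CD8 T cells were sorted and pooled from 3 mice for each of 4 libraries, control LN, CD8-IFNγRKO LN, control tumor and CD8-IFNγRKO tumor.

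Each group was therefore 1 library, and no test between groups was run. Levels are given as CPM, the unique molecular identifiers (UMIs, which count each captured RNA molecule once) of a gene per 1000000 UMIs of all kept cells of a library. Differences are log2 ratios of CPM with 1 CPM added to both sides, and the 95% intervals in brackets cover counting error only. A member was counted as higher or lower when its ratio passed 1.5-fold, among genes whose mean over the 2 groups compared was at least 10 CPM. The share of all genes that passed the same limit is given beside the counts of members.

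The libraries held 6641 to 8636 kept cells and 28841136 to 93995655 UMIs. The median cell had 4051 UMIs in control LN, 3863 in CD8-IFNγRKO LN, 6308 in control tumor and 9402.5 in CD8-IFNγRKO tumor. *Ifngr1*, the targeted gene, was at 182 and 137 CPM in control and CD8-IFNγRKO LN and at 718 and 237 CPM in the corresponding tumors. Reads were taken at the 5′ end of transcripts, which need not lie in the deleted part, so that this is a partial check of the labels. The 5 markers of CD8 T cells summed to 3992 to 6011 CPM, and the 5 melanoma markers to 2.54 to 3.78 CPM in any library. The 10 myeloid markers summed to 79.7 and 75.8 CPM in LN and to 337 and 273 CPM in tumors, of which *Cst3* made up 247 and 211 CPM in tumors, while *Lyz2* was at 2.59 CPM or less. Between 2.5% and 3.1% of the kept cells of a library had a barcode that also occurred in another library.

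Promoter windows of RefSeq (GRCm38.p6) were at hand for 30 of the 34 members, with 45 annotated starts, and not for *Slc2a3*, *Bnip3l*, *Ero1l* and *Bhlhe40*. The 250 bases before each start were searched on both strands for ACGTG and GCGTG, the cores of the element that HIF binds. Overlapping matches were counted as 1, and ACGTG is also part of the palindrome CACGTG, which other transcription factors bind. Of the 45 member windows, 33 (73.3%) held a match and 20 (44.4%) held at least 2, against 38.6% and 13.5% of 32851 windows of all genes. Both cores contain CG, and the windows of all genes were not matched to those of members by base content or level. The members were chosen as genes of glycolysis and of the response to low oxygen, so that these shares are a description and not a test. Starts of 1 gene can lie close together, so that windows are not independent of each other. By gene, 26 of the 30 members had a match in at least 1 window. The share of all genes by this count is not given here, and genes with several starts have more windows to match.

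The windows of 6 members follow, in the sense of the gene, with the matched bases in capitals. *Bnip3*, *Ankrd37*, *Slc16a3* and *Ldha* were at higher levels in both tumors than in LN, and *Pdk1* and *Kdm3a* at lower levels. The windows lie at chr7:138909507-138909756 (minus strand, *Bnip3*), chr8:45999851-46000100 (minus strand, *Ankrd37*), chr11:120948817-120949066 (plus strand, *Slc16a3*), chr7:46845554-46845803 (plus strand, *Ldha*), chr2:71872974-71873223 (plus strand, *Pdk1*) and chr6:71632918-71633167 (minus strand, *Kdm3a*).
Bnip3: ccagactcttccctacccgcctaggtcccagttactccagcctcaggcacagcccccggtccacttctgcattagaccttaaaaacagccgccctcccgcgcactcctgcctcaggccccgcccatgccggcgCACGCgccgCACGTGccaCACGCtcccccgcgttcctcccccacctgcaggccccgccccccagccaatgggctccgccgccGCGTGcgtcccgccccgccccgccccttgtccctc
Ankrd37: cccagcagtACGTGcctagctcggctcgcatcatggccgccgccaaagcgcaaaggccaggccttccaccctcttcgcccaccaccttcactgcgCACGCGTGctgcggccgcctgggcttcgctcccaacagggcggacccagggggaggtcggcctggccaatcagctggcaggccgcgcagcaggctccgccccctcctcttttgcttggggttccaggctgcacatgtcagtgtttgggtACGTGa
Slc16a3: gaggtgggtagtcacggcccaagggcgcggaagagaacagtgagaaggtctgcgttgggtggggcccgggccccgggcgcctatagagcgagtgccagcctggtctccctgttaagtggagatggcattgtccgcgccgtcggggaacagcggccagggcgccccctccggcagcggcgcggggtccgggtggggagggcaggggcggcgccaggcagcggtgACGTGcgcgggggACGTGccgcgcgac
Ldha: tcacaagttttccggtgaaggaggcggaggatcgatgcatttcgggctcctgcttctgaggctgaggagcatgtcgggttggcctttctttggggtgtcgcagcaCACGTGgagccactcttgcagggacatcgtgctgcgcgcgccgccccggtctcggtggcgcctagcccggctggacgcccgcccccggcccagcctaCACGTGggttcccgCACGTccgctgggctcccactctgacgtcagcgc
Pdk1: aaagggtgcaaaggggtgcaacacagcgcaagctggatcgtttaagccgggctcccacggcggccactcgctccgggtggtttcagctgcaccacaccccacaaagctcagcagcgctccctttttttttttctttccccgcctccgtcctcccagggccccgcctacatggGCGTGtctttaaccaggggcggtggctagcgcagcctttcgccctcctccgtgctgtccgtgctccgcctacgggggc
Kdm3a: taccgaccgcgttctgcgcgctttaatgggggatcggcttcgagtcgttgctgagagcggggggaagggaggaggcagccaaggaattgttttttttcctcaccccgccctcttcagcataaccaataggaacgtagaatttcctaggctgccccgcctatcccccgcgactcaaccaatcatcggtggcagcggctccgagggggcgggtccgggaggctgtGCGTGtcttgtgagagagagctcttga
*Bnip3* had 4 matches, *Ankrd37* and *Ldha* 3 each, and *Slc16a3* 2. Of the genes shown, the 2 with lower levels in tumors, *Pdk1* and *Kdm3a*, had 1 match each in these windows. The number of matches did not follow the ratios of tumor over LN. *Slc16a3*, with the largest ratio of the genes shown, had fewer matches than *Ankrd37* and *Ldha*. Among other members, *P4ha1* and *Slc16a1* had 3 matches each and *Tpi1*, the glycolytic step with the largest ratio of tumor over LN, had 0. No match was found before the single listed start of *Gpi1*, *Tpi1*, *Mif* and *Vhl*, and a match is a run of letters and not a measured site.

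TILs of both genotypes had higher levels of nearly all glycolytic genes than LN cells. *Gapdh*, which encodes the dehydrogenase of the middle of the pathway, was at 1377 CPM in control LN, 1321 in CD8-IFNγRKO LN, 7332 in control tumor and 9086 in CD8-IFNγRKO tumor. *Tpi1*, which interconverts the triose phosphates, was at 41.5 and 41.3 CPM in LN and at 566 and 906 CPM in tumors. *Slc16a3*, the lactate exporter known from highly glycolytic cells, was at 0.434 and 0.520 CPM in LN, from 13 and 15 UMIs, and at 96.6 and 141 CPM in tumors. For each of these genes the LN libraries lay together and far below both tumors. According to the paper, tumors were digested with enzymes, while LN were only pressed through a strainer. At least 1 UMI of *Tcf7*, a gene of naive and stem-like CD8 T cells, was found in 85.1% and 84.8% of LN cells. In tumors it was found in 5.24% and 9.69% of cells. Tissue, preparation and cell state therefore cannot be told apart in the ratios of tumor over LN.

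In control cells, 25 of the 29 members that met the level limit were at least 1.5-fold higher in tumor than in LN, where 24.5% of all 7608 genes tested were, and 3 were lower, where 20.5% were. In CD8-IFNγRKO cells, 24 of 28 members were higher, against 26.2% of all genes, and 2 were lower, against 22.8%. The median log2 ratio was 1.74 for glycolysis members and 1.10 for hypoxia members in control cells, and 2.22 and 1.53 in CD8-IFNγRKO cells. Over all genes the median was 0.04 and 0.05. *Slc16a3*, *Bnip3*, *Vhl* and *Ankrd37* were under 10 CPM in both LN libraries and met the limit through the tumor alone. The same held in CD8-IFNγRKO cells for *Pfkfb3* and *Bhlhe40*, at 9.85 and 8.08 CPM in LN. In control cells *Ldhb*, counted as lower, met the limit through LN alone, with 5.75 CPM in tumor. *Hk2*, *Pfkm*, *Slc16a1*, *Egln3* and *Vegfa* did not meet it in either genotype, nor *Ldhb* in CD8-IFNγRKO cells.

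**Figure D1:**
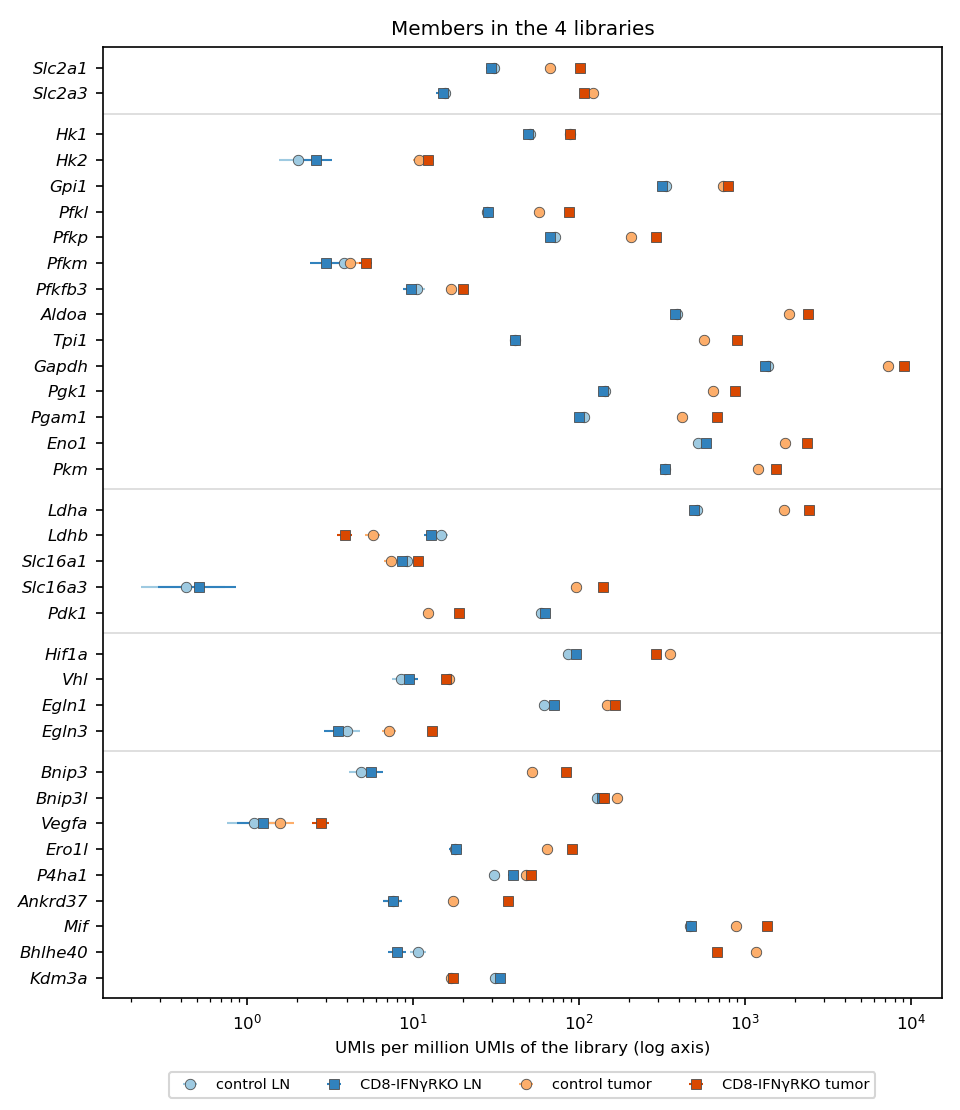
Level of each of the 34 members in the 4 libraries, in CPM on a log axis, with exact Poisson 95% intervals (counting error only) and grey lines between the 5 groups. The LN symbols of both genotypes nearly coincide, and the tumor symbols lie to the right of them for most genes, by most for *Slc16a3* and *Bhlhe40*, while *Ldhb*, *Pdk1* and *Kdm3a* lie to the left.

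Glucose enters T cells through the transporters of *Slc2a1* and *Slc2a3*. *Slc2a1* was at 30.8 and 29.6 CPM in control and CD8-IFNγRKO LN and at 67.2 and 102 CPM in the tumors. *Slc2a3* was at 15.6 and 15.2 CPM in LN and at 122 and 107 CPM in tumors. The log2 ratio of tumor over LN was thus larger for *Slc2a3*, at 2.89 [2.77 to 3.02] in control and 2.74 [2.61 to 2.87] in CD8-IFNγRKO cells, than for *Slc2a1*, at 1.10 [1.00 to 1.20] and 1.75 [1.65 to 1.85].

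Along the pathway, and among the enzymes that met the level limit, those of its first part had smaller ratios than those from the aldolase onward in control cells, and in CD8-IFNγRKO cells with the exception of *Pfkp*, whose ratio exceeded that of *Eno1*. *Hk1*, a hexokinase, had a log2 ratio of 0.79 in control and 0.84 in CD8-IFNγRKO cells. *Gpi1*, the isomerase of the next step, had 1.14 and 1.31, and *Pfkl* and *Pfkp*, which encode isoforms of the rate-controlling phosphofructokinase, had 1.00 and 1.51 in control cells and 1.59 and 2.11 in CD8-IFNγRKO cells. From *Aldoa*, which splits the sugar into trioses, onward, the ratios of *Aldoa*, *Tpi1*, *Gapdh*, *Pgk1*, *Pgam1*, *Eno1* and *Pkm* ranged from 1.74 (*Eno1*) to 3.74 (*Tpi1*) in control cells and from 2.03 (*Eno1*) to 4.42 (*Tpi1*) in CD8-IFNγRKO cells. *Pfkfb3*, which makes an activator of phosphofructokinase, stood at 0.64 and 0.96.

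Isoforms of low level did not meet the limit between tissues. *Hk2*, another hexokinase, was at 2.04 and 2.60 CPM in LN and 10.9 and 12.4 CPM in tumors, and its log2 ratio of 1.96 in control cells, under the level limit, exceeded those of *Eno1* and *Pkm*. *Pfkm* was at 3.02 to 5.23 CPM in all 4 libraries. *Eno1* has a near-identical copy, *Eno1b*, with 10.1 and 13.4 CPM in the tumors, against 1752 and 2386 CPM of *Eno1* itself, and a second row of *Aldoa* held 0, 0, 24 and 67 UMIs against at least 10950 of the row used here. *Gapdh* has many processed copies in the mouse genome, and how reads were shared with them is not known here.

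Of the genes that decide the fate of pyruvate, *Ldha*, the lactate dehydrogenase subunit that favors lactate, was at 515 and 497 CPM in LN and at 1730 and 2457 CPM in tumors. *Ldhb*, the subunit that favors the return of lactate to pyruvate, went the other way, with 14.9 and 12.9 CPM in LN and 5.75 and 3.89 CPM in tumors. *Pdk1*, a kinase that holds pyruvate back from the mitochondria and is a textbook target of HIF, was also lower in tumors, at 12.4 and 19.0 CPM against 59.5 and 63.0 CPM in LN. The log2 ratio of *Pdk1* was -2.17 [-2.29 to -2.06] in control cells and -1.68 [-1.77 to -1.59] in CD8-IFNγRKO cells. *Slc16a1*, the other lactate transporter, was at 7.41 to 10.8 CPM in all libraries.

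Among genes of oxygen sensing, *Hif1a*, the alpha subunit of HIF, was at 86.5 and 95.9 CPM in LN and at 355 and 293 CPM in tumors. *Egln1*, the main hydroxylase of that subunit, had log2 ratios of 1.25 and 1.21, and *Vhl* of 0.89 and 0.67. *Egln3*, a hydroxylase that is itself a HIF target, was at 4.04 and 3.57 CPM in LN and at 7.19 and 13.0 CPM in tumors.

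Other hypoxia targets differed widely among themselves. *Bhlhe40*, a transcription factor raised by both hypoxia and T cell activation, was at 10.8 and 8.08 CPM in LN and at 1169 and 678 CPM in tumors, log2 ratios of 6.63 [6.48 to 6.78] and 6.23. *Bnip3*, which tags mitochondria for removal, was at 4.88 and 5.65 CPM in LN and at 52.6 and 84.3 CPM in tumors. *Ero1l*, an oxidase of the endoplasmic reticulum, had log2 ratios of 1.77 and 2.27. These 3 genes exceeded 1.5-fold by a wide margin in both genotypes.

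Smaller differences were measured for the rest of that group. *Mif*, a secreted cytokine, had log2 ratios of 0.93 and 1.53, *Ankrd37*, a small ankyrin repeat protein, of 1.10 and 2.16, and *P4ha1*, a subunit of collagen prolyl hydroxylase, of 0.62 and 0.35. *Bnip3l*, a relative of *Bnip3*, was at 130 to 170 CPM in the 4 libraries. *Kdm3a*, a histone demethylase, was lower in tumors, at 17.1 and 17.5 CPM against 31.4 and 33.4 CPM. *Vegfa* was at 1.10 to 2.79 CPM throughout. Scaling by the median ratio of genes, or by totals without T cell receptor, heat shock, ribosomal and mitochondrial genes, moved the median of all genes from 0.04 to -0.11 and -0.26 in control cells and from 0.05 to -0.12 and -0.23 in CD8-IFNγRKO cells. The number of members higher in tumor was then 23 of 29 and 22 of 30 in control cells, where 20.3% and 17% of all genes were, and 23 of 28 and 23 of 31 in CD8-IFNγRKO cells, where 20.7% and 18.8% were, and the ratio of *Bnip3l* in CD8-IFNγRKO cells was below 0 under both.

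Cells with a UMI of *Mki67* or *Top2a*, genes of dividing cells, made up 3.19% and 2.48% of LN cells and 37.3% and 58.5% of tumor cells in control and CD8-IFNγRKO mice. Depth moved the same way, as given above. Within tumors the 14 glycolytic steps summed to 14592 CPM in control cells without such a UMI and to 15146 CPM in control cells with one, and to 18686 and 19369 CPM in CD8-IFNγRKO cells. All 4 sums lay far above the 3419 and 3380 CPM of all LN cells. A cell with no such UMI can still be dividing, so that this split is by detection. Tumor cells without such a UMI were shallower, with medians of 5095.5 against 11068 UMIs in control and 5761.5 against 12938.5 UMIs in CD8-IFNγRKO tumors. The part of dividing cells in the ratios of tumor over LN was not tested. The myeloid markers were also higher in tumors than in LN, as given above, and their part in the ratios was not tested. In bulk sums of this kind, more cells with a high level and more RNA per cell cannot be told apart, which the next measurement addresses by cell.

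Each cell was thinned to 1600 UMIs, and the share of these on the 21 glycolysis members was taken, which left out 237 and 41 shallower cells of control and CD8-IFNγRKO LN and 701 and 278 cells of the tumors. The median share was 0.375% in both LN libraries, with the range from the 10th to the 90th percentile at 0.188% to 0.625%. In tumors the median was 1.5% (0.75% to 2.56%) in control and 2.0% (0.813% to 3.19%) in CD8-IFNγRKO cells. The upper end of the LN cells thus met the lower end of the TILs, and the TIL distributions were broad and single-peaked. The share on the 13 hypoxia members had a median of 0.0625% in both LN libraries and 0.25% in both tumors.

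**Figure D2:**
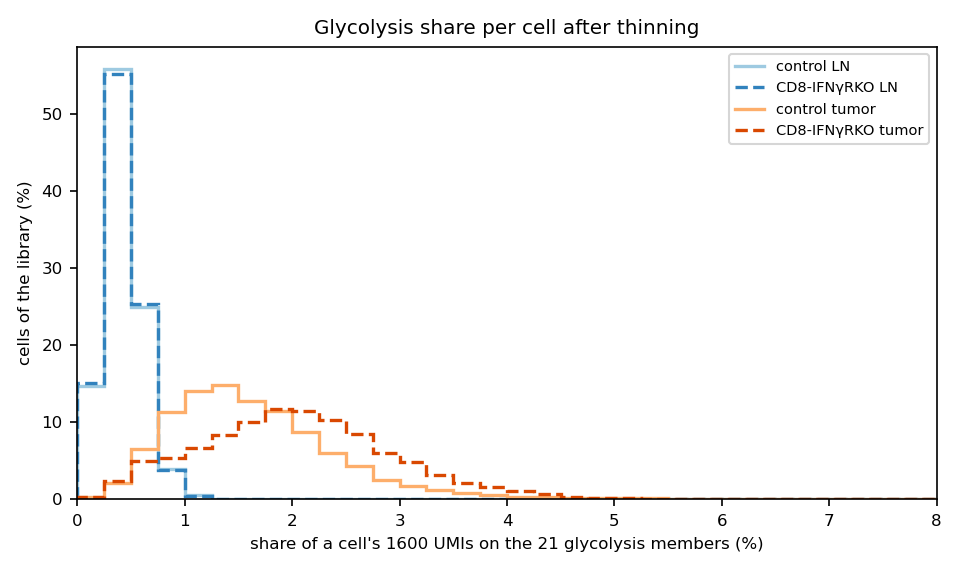
Share of each cell's 1600 UMIs that fell on the 21 glycolysis members (x axis, %), as the percentage of cells of a library in bins of 0.25 (y axis). Both LN libraries peak between 0.25% and 0.5% and overlie each other, control TILs peak between 1.25% and 1.5% and CD8-IFNγRKO TILs between 1.75% and 2.0%.

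Genes of the same pathways outside the 34 members were read from a list of 43 further glycolysis genes and a list of 30 further hypoxia genes. In control cells, 7 of the 20 further glycolysis genes that met the level limit were higher in tumor and 1 lower, with a median log2 ratio of 0.39, and 8 of 15 further hypoxia genes were higher and 2 lower, with a median of 0.82. Of all genes, 24.5% were higher and 20.5% lower. Among those counted as higher, *Eno3*, *Slc2a8*, *Pdp1*, *Ndrg1*, *Mxi1* and *Plin2* were under 10 CPM in control LN. They met the level limit through the tumor alone, so that these counts and medians are a description only. The highest ratios were those of *Mxi1*, an antagonist of Myc (3.44), and of the lipid droplet genes *Hilpda* (3.20) and *Plin2* (2.41). The lowest were those of *Adpgk*, an ADP-dependent glucokinase (-1.41), *Kdm4b*, a histone demethylase (-1.07), and *Arnt*, the constant partner of HIF (-0.70). In CD8-IFNγRKO cells *Mxi1*, *Hilpda* and *Plin2* had 3.01, 2.85 and 1.90, *Kdm4b* and *Arnt* -1.23 and -0.75, and *Adpgk* was also at a lower level in tumor, at 18.2 against 37.3 CPM. *Mxi1* and *Plin2* were under 10 CPM in CD8-IFNγRKO LN as well, at 9.60 and 9.36 CPM.

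CD8-IFNγRKO TILs had higher levels of most glycolytic genes than control TILs, by amounts much smaller than those between tissues. Of the 18 glycolysis members that met the level limit in tumors, 17 had a log2 ratio of CD8-IFNγRKO over control above 0, with a median of 0.44, against a median of 0.02 over all genes. Summed over the 14 glycolytic steps, control TILs had 14903 CPM and CD8-IFNγRKO TILs 19194 CPM. *Gapdh* alone made up 7332 and 9086 CPM of these sums, so that sums of this kind weigh that gene most. The 12 hypoxia members that met the limit had a median of 0.12, with 8 above 0 and values from -0.78 to 1.05. For these counts above 0, the share of all genes above 0 is not given here.

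Past 1.5-fold, 8 of 30 members were higher in CD8-IFNγRKO TILs, where 4.72% of all 7498 genes tested were, and 1 was lower, where 3.41% were. *Ankrd37* had the highest ratio, with 37.4 against 17.5 CPM, a log2 ratio of 1.05 [0.96 to 1.15]. *Egln3*, with 13.0 against 7.19 CPM (0.78 [0.63 to 0.92]), met the level limit through the CD8-IFNγRKO tumor alone. The other 6 were *Pgam1* (0.69), *Tpi1* (0.68), *Bnip3* (0.67), *Mif* (0.63), *Slc2a1* (0.59) and *Pfkl* (0.59), and the last 2 lay just past the limit. *Pdk1* (0.57), *Slc16a3* (0.54), *Ldha* (0.51) and *Ero1l* (0.51) lay just below it.

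*Bhlhe40* was the member on the lower side, with 678 against 1169 CPM and a log2 ratio of -0.78 [-0.80 to -0.77]. Also lower, within the limit, were *Hif1a* with 293 against 355 CPM (-0.28 [-0.30 to -0.25]), *Bnip3l* with 143 against 170 CPM (-0.25 [-0.29 to -0.21]) and *Slc2a3* with 107 against 122 CPM (-0.19 [-0.23 to -0.14]). Hypoxia members thus lay on both sides of 0. *Hk1* was at 88.7 and 89.1 CPM, a log2 ratio of 0.01 [-0.04 to 0.05]. *Slc2a1* and *Slc2a3* had ratios of opposite sign, as had *Bnip3* and *Bnip3l*.

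**Figure D3:**
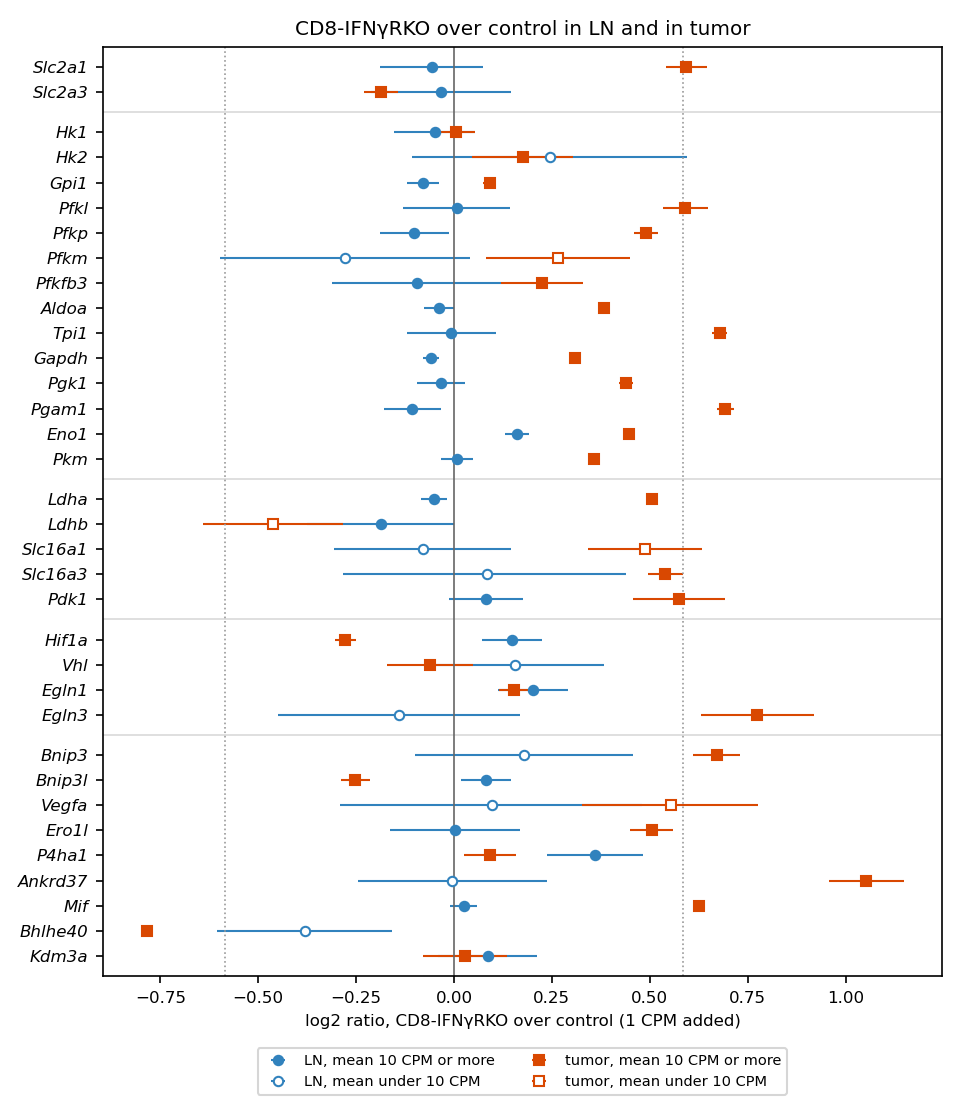
Log2 ratio of CD8-IFNγRKO over control for each member in LN (circles) and in tumor (squares), with exact 95% intervals of counting error, dotted lines at 1.5-fold and open symbols for genes with a mean under 10 CPM. LN ratios lie near 0, while tumor ratios of most glycolytic genes lie to the right, *Ankrd37* farthest at 1.05 and *Bhlhe40* farthest to the left at -0.78.

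CD8-IFNγRKO TILs were deeper, held more cells with a UMI of *Mki67* or *Top2a* (58.5% against 37.3%) and had 2114 against 793 CPM of the 4 heat shock markers, and the part of heat shock in the ratios was not tested. Among cells without a *Mki67* or *Top2a* UMI, 9 of 29 members were higher past 1.5-fold, where 4.63% of all genes were, and the median over all members was 0.40. Among cells with one, 6 of 29 were higher, where 2.11% of all genes were, and the median was 0.42. *Bhlhe40* was lower in both, with -0.78 and -0.71, and *Ankrd37* higher, with 1.06 and 1.08. Thinned to 1600 UMIs per cell, *Ankrd37* (0.94), *Pgam1* (0.65), *Tpi1* (0.64) and *Mif* (0.60) were higher past 1.5-fold, 4 of 29 members where 6.52% of all genes were, and *Bhlhe40* (-0.85) was lower. *Bnip3* (0.57), *Slc2a1* (0.54) and *Pfkl* (0.40) then lay below the fold limit, *Egln3* (0.95) fell under the level limit, and the median of glycolysis members was 0.39. With 1 library a side, a difference between genotypes and a difference between pools of mice cannot be told apart.

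In LN the members differed little between genotypes. Of the 24 that met the level limit, 0 were higher past 1.5-fold and 0 lower, where 0.136% and 0.203% of all 7372 genes were. No test could be run on 1 library a side. The median log2 ratio was -0.05 for glycolysis members and 0.09 for hypoxia members, and the largest was that of *P4ha1*, with 40.0 against 30.9 CPM (0.36 [0.24 to 0.48]). *Eno1* (0.16), *Egln1* (0.20), *Hif1a* (0.15) and *Bnip3l* (0.08) were also on the higher side with intervals that left out 0. On the lower side, also with intervals that left out 0, were among others *Pgam1* (-0.11), *Pfkp* (-0.10) and *Gpi1* (-0.08). *Gapdh* (-0.06), *Ldha* (-0.05) and *Aldoa* (-0.04) lay there as well. The heat shock markers differed here too, at 1284 against 852 CPM.

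Of the further pathway genes in tumors, 1 of 22 glycolysis genes and 3 of 17 hypoxia genes were higher in CD8-IFNγRKO TILs past 1.5-fold and 0 were lower, against 4.72% and 3.41% of all genes. They were *Eno3*, the muscle enolase (0.95), *Ndrg1* (0.83), *Ddit4*, an inhibitor of mTOR signaling (0.82), and *Tfrc*, the transferrin receptor (0.79), named after their values were seen. The median of the further hypoxia genes was -0.02. *Hilpda* and *Mxi1*, high in both tumors, had ratios of -0.14 and -0.28.

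*Tcf7* encodes a transcription factor of naive and stem-like CD8 T cells. At least 1 *Tcf7* UMI was found in 372 cells (5.24%) of the control tumor and 837 cells (9.69%) of the CD8-IFNγRKO tumor, against 85.1% and 84.8% of LN cells. TILs with a *Tcf7* UMI were shallower than those without, with medians of 4562.5 against 6394 UMIs in control and 4521 against 9901 UMIs in CD8-IFNγRKO tumors. A cell with no *Tcf7* UMI can still express the gene, so that the split is by detection. Both classes came from the same library.

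TILs with a *Tcf7* UMI had lower levels of glycolytic genes than TILs without. Summed over the 14 glycolytic steps they had 11363 against 15073 CPM in the control tumor and 12075 against 19656 CPM in the CD8-IFNγRKO tumor. Of the 15073 CPM in control TILs without a *Tcf7* UMI, *Gapdh* alone made up 7416 CPM. At one depth of 1600 UMIs per cell, with 175 and 450 cells in the *Tcf7* class, the sums were 6925 against 14376 CPM and 7929 against 18231 CPM. The classes were taken anew after thinning, so that they are not the same cells. Before thinning their medians were 3727 against 7043 and 3854 against 10086 UMIs. A *Mki67* or *Top2a* UMI was then found in 5.71% against 19.7% of thinned control TILs and 9.11% against 32.8% of thinned CD8-IFNγRKO TILs. Thinned LN cells had 3306 and 3300 CPM. TILs with a *Tcf7* UMI therefore lay between LN cells and the other TILs on this scale.

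By gene, in the control tumor 2 of 29 members were lower past 1.5-fold, where 5.11% of all genes were, and 2 were higher, where 4.87% were. The lower ones were *Slc16a3*, with 46.9 against 98.9 CPM (-1.06 [-1.32 to -0.81]), and *Slc2a3*, with 72.5 against 125 CPM (-0.78 [-0.98 to -0.57]). The higher ones were *Pdk1*, with 24.2 against 11.8 CPM (0.97 [0.60 to 1.32]), and *Kdm3a*, with 29.3 against 16.6 CPM (0.79 [0.45 to 1.11]). Both counts were near the shares of all genes and are not read as a result about the members. As single genes, *Slc16a3* and *Slc2a3* were among the members highest in tumor over LN, and *Pdk1* and *Kdm3a* among those lowest.

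In the CD8-IFNγRKO tumor 14 of 30 members were lower past 1.5-fold, where 6.8% of all genes were, and 0 were higher, where 7.32% were. The lowest were *Slc16a3*, with 57.8 against 146 CPM (-1.32 [-1.48 to -1.17]), *Bnip3* (-1.20 [-1.39 to -1.01]) and *Slc2a3* (-1.20 [-1.37 to -1.03]), followed by *Tpi1* (-0.93), *Ero1l* (-0.84), *Pgk1* (-0.82) and *Aldoa* (-0.80). *Pdk1* (0.29) and *Kdm3a* (0.28) were again on the higher side. Among cells with a *Mki67* or *Top2a* UMI, 3 of 31 members were lower, where 1.66% of all genes were. *Hif1a* differed little between the classes, with -0.18 in control and -0.19 in CD8-IFNγRKO TILs, and *Bnip3l* with 0.01 and 0.07.

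The count in the control tumor was 7 of 28 without the 5% of cells with most UMIs, where 8.05% of all genes were lower. After thinning, which also left fewer cells in the *Tcf7* class, 17 of 29 members were lower past 1.5-fold in the control tumor, where 21.7% of all genes were, and 20 of 29 in the CD8-IFNγRKO tumor, where 19.1% were. *Gapdh* then had log2 ratios of -1.07 [-1.17 to -0.98] and -1.24 [-1.30 to -1.18], *Aldoa* -1.17 and -1.24, *Tpi1* -1.92 and -1.73, and *Ldha* -0.71 and -1.21. *Slc16a3* had -2.66 and -2.78, although from 14.3 and 18.1 CPM in the *Tcf7* class, where 1 UMI was worth 3.57 and 1.39 CPM. *Pdk1* stayed on the higher side, with 1.66 [0.71 to 2.50] and 0.45 [-0.30 to 1.11].

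**Figure D4:**
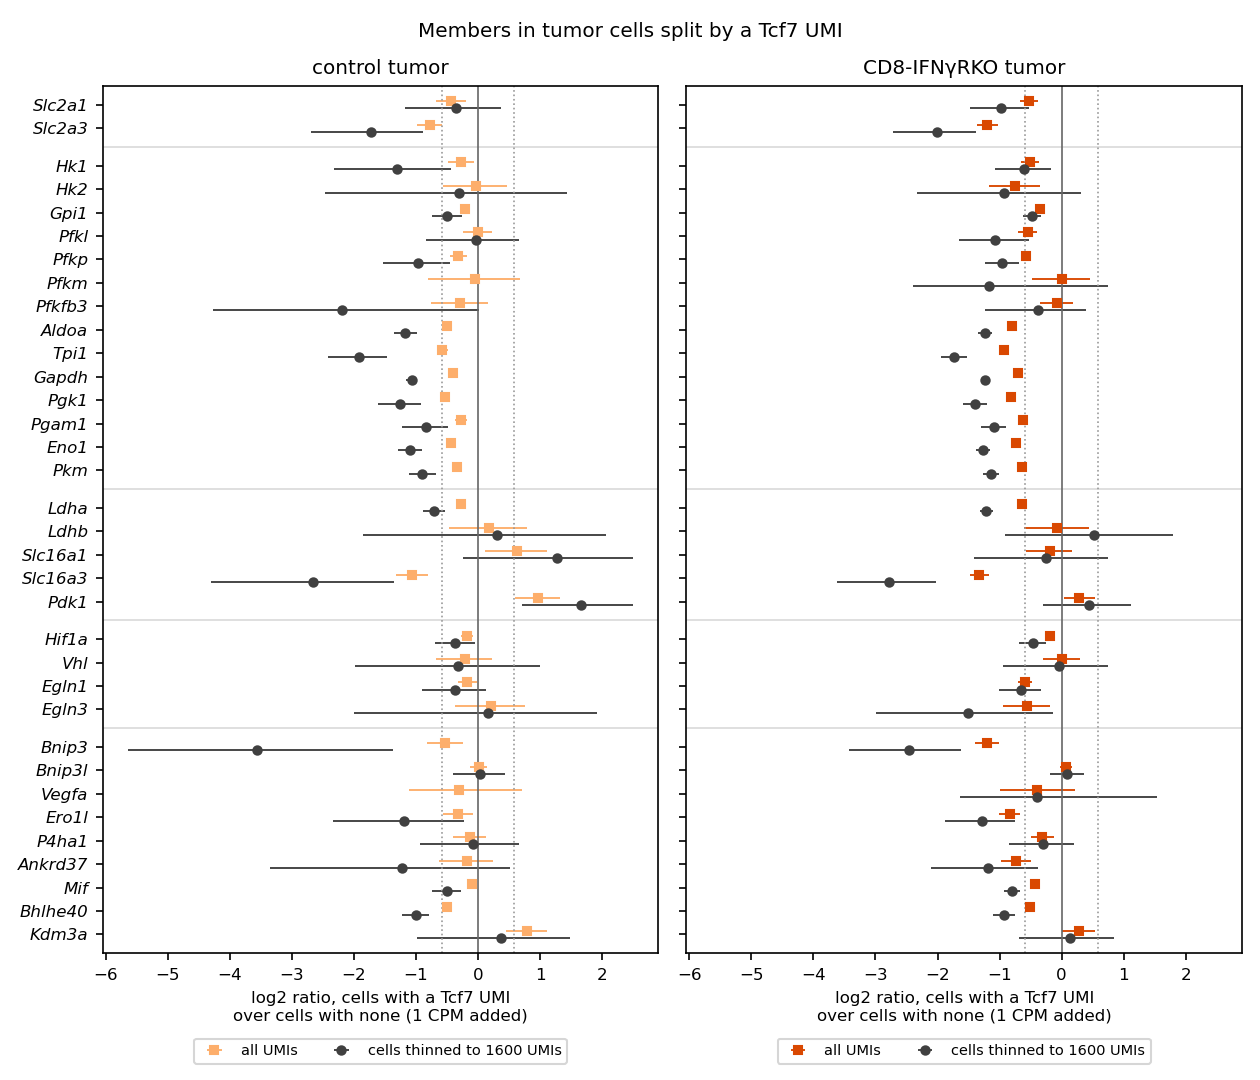
Log2 ratio of TILs with a *Tcf7* UMI over TILs with none, for each member in the control tumor (left) and the CD8-IFNγRKO tumor (right), from all UMIs (squares) and from cells thinned to 1600 UMIs (circles), with exact 95% intervals of counting error and dotted lines at 1.5-fold. Most points lie left of 0, those of thinned cells farther left, and *Pdk1* lies to the right in both tumors.

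Cells with a *Mki67* or *Top2a* UMI were less frequent in the *Tcf7* class (23.9% against 38.0% in control and 28.7% against 61.7% in CD8-IFNγRKO tumors). Among cells without such a UMI, the 14 glycolytic steps summed to 9095 CPM in the *Tcf7* class against 14908 CPM in the control tumor and to 8793 against 19992 CPM in the CD8-IFNγRKO tumor. Among cells with one, they summed to 13808 against 15200 CPM and to 15231 against 19549 CPM, from 89 and 240 cells in the *Tcf7* class. The gap between the classes was thus narrower among the latter, which were also deeper, with medians of 12627 and 10522.5 UMIs in the *Tcf7* class. Whether the gap differs was not tested. The heat shock markers were at 796 against 793 CPM in the control tumor and at 2758 against 2072 CPM in the CD8-IFNγRKO tumor, and their part in the ratios was not tested.

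Between genotypes, the sums of the glycolytic steps in the *Tcf7* class were 6925 CPM in control and 7929 CPM in CD8-IFNγRKO TILs after thinning, and 14376 and 18231 CPM in TILs without a *Tcf7* UMI. The median share of a cell's UMIs on the 21 glycolysis members was 0.625% and 0.688% in the *Tcf7* class and 1.5% and 2.0% outside it. The 90th percentile in the *Tcf7* class was 1.41% in control and 2.0% in CD8-IFNγRKO TILs. It lay below the median of the other TILs in the control tumor and equaled it in the CD8-IFNγRKO tumor.

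To see how the members varied together from cell to cell, thinned TILs were split by a UMI of *Bnip3*, with *Bnip3* itself left out. Such a UMI was found in 457 of 6402 control TILs and in 872 of 8358 CD8-IFNγRKO TILs. The classes had similar depth before thinning, with medians of 7654 against 6884 UMIs in control and 10622 against 9558.5 UMIs in CD8-IFNγRKO tumors, and similar shares of cells with a *Mki67* or *Top2a* UMI, at 20.6% against 19.3% and 30.5% against 31.7%. *Tcf7* UMIs were rarer where *Bnip3* was found, in 0.219% against 2.93% and 1.15% against 5.88% of cells.

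Cells with a *Bnip3* UMI had higher levels of both glycolysis and hypoxia members. The 14 glycolytic steps summed to 20728 against 13669 CPM in the control tumor and to 24146 against 16923 CPM in the CD8-IFNγRKO tumor. In the control tumor 15 of 28 members were higher past 1.5-fold, where 4.17% of all genes were, and 0 were lower, where 4.73% were. *Hk2*, *Slc16a1*, *Egln3*, *Ldhb*, *Pfkm* and *Vegfa* were under 10 CPM over all thinned control TILs. A member that met the level limit only through the cells with a *Bnip3* UMI is therefore among the 28. In the CD8-IFNγRKO tumor 13 of 30 were higher, where 1.79% of all genes were, and 0 were lower, where 2.61% were. A log2 ratio above 0 was found for 26 of 28 and 30 of 30 members. The share of all genes above 0 is not given here for comparison. With all UMIs in place of thinned cells, 5 of 28 members were higher past 1.5-fold in the control tumor, where 0.321% of all genes were. In the CD8-IFNγRKO tumor, 25 of 29 were higher among cells without a *Mki67* or *Top2a* UMI, where 6.2% of all genes were, and 8 of 30 among cells with one, where 3.05% were.

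The members with the highest ratios were similar in the 2 tumors, which are separate libraries. *Slc16a3* had 182 against 86.8 CPM in control TILs (1.06 [0.78 to 1.32]) and 205 against 114 CPM in CD8-IFNγRKO TILs (0.84 [0.65 to 1.02]). *Egln1* had 1.01 [0.79 to 1.22] and 0.71 [0.54 to 0.87], *Tpi1* 0.94 [0.83 to 1.06] and 0.74 [0.66 to 0.81], and *Ero1l* 0.81 [0.46 to 1.14] and 0.97 [0.75 to 1.17]. *Slc2a1* (0.78 and 0.74), *Slc2a3* (0.75 and 0.73) and *P4ha1* (0.68 and 0.78) came next. *Ankrd37* had 0.58 [-0.15 to 1.25] from 19 UMIs in control and 0.89 [0.54 to 1.23] from 84 UMIs in CD8-IFNγRKO TILs.

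Other members hardly followed *Bnip3*. *Hif1a* had 0.04 [-0.14 to 0.22] and 0.19 [0.05 to 0.32], *Bhlhe40* -0.01 [-0.11 to 0.09] and 0.11 [0.02 to 0.20], *Hk1* 0.20 [-0.17 to 0.54] and 0.24 [-0.02 to 0.49], and *Vhl* -0.02 [-0.89 to 0.76] and 0.06 [-0.56 to 0.64]. *Bhlhe40*, the member with the largest ratio of tumor over LN in control cells, was at 1242 CPM in control TILs with a *Bnip3* UMI and at 1250 CPM in those without. *Pdk1*, low in tumors as a whole, had 0.39 [-0.49 to 1.18] and 0.39 [-0.16 to 0.90], from 13 and 33 UMIs. Across the 28 members that met the limit in both tumors, the ratios of the tumors had a Pearson correlation of 0.77, given as a description of genes that share cells and libraries.

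**Figure D5:**
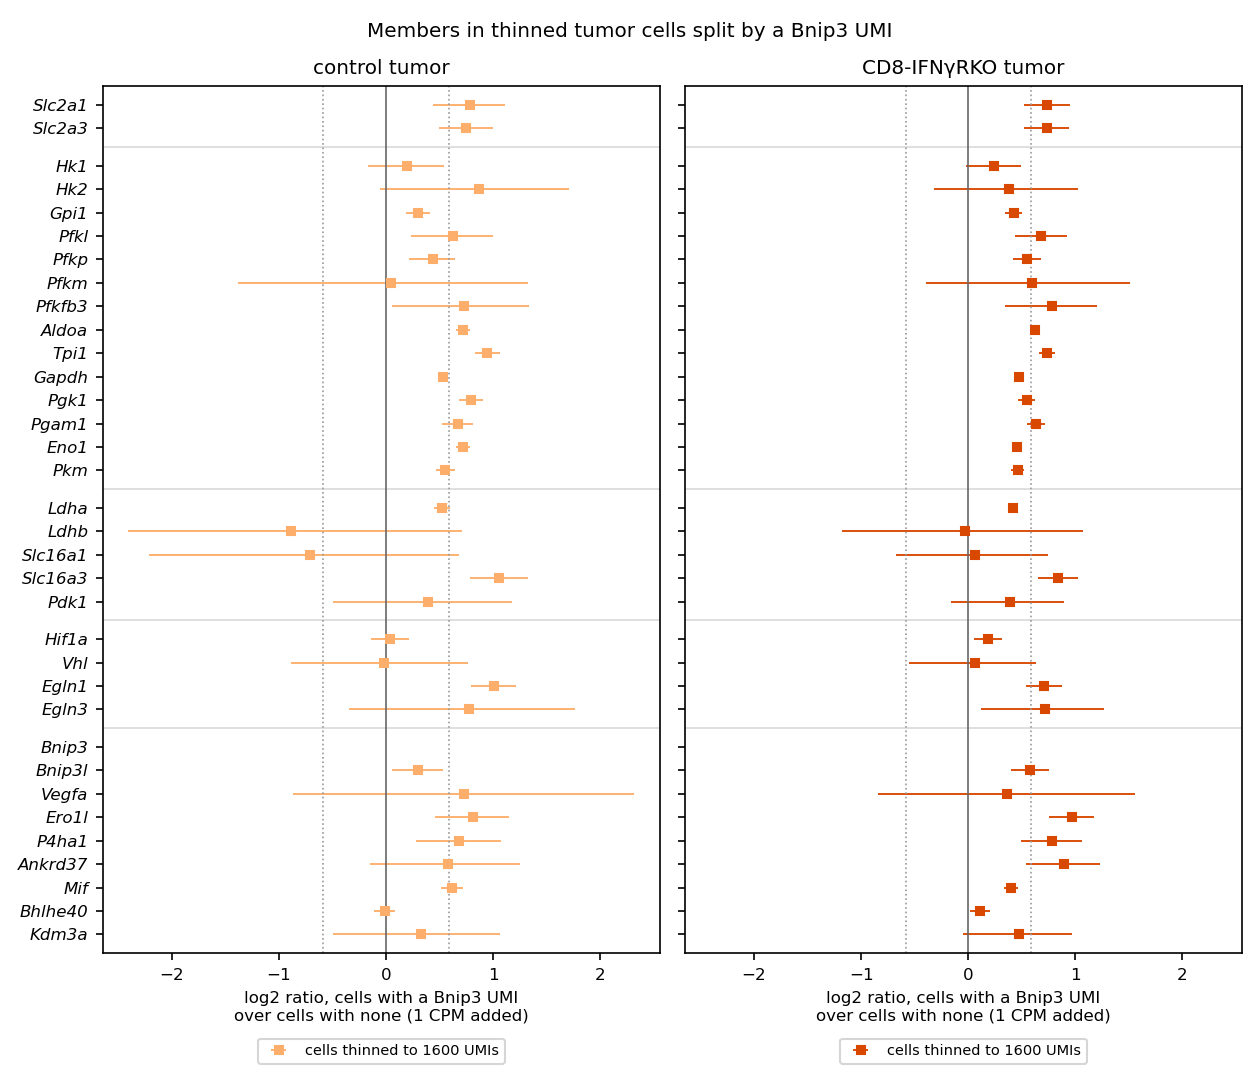
Log2 ratio of TILs with a *Bnip3* UMI over TILs with none, for the other 33 members in the control tumor (left) and the CD8-IFNγRKO tumor (right), from cells thinned to 1600 UMIs, with exact 95% intervals of counting error and dotted lines at 1.5-fold. Most members lie to the right of 0 in both panels, *Slc16a3*, *Egln1*, *Tpi1* and *Ero1l* among the farthest, and *Hif1a*, *Bhlhe40* and *Vhl* near 0.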

How the data were processed

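CD8 T cells were profiled with 10x Genomics 5′ single-cell RNA-seq in 4 libraries, 1 per tissue and genotype, each pooled from 3 mice. The deposited counts are whole UMI counts per gene and barcode, which the authors made with Cell Ranger 6.0.0 on mm10 according to the submitters' processing notes, and 2 T cell receptor libraries were not used here. A barcode was kept as a cell when it had between 200 and 6000 detected genes, its mitochondrial share was 3% or less, its most abundant gene took 20% or less, and *Cd2*, *Cd8a* and *Cd8b1* were all detected. No doublet caller was run. Counts were summed over cells and divided by the library total. Intervals are exact Poisson for levels and exact conditional binomial for ratios, at 95%. For comparisons of cells, each cell was thinned to 1600 UMIs with a fixed seed.

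The members, the further pathway lists, the marker lists and the rule for named genes were chosen with earlier results of these data known. All members are accounted for. Of the further pathway genes, the 3 with the highest and the 3 with the lowest ratio of tumor over LN in control cells are named, and others only where stated. Since each group was 1 library, no p-value was computed. The computation was tested on simulated data. The scripts used pandas 2.3.3, scipy 1.17.1, numpy 2.4.6 and matplotlib 3.10.9 under Python 3.11.15. Alternatives were other scalings, cell filters, level limits, pseudocounts, thinning, means over cells and cells with or without a *Mki67* or *Top2a* UMI.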

Additional observations from a re-analysis of the deposited data

Results flagged for a closer look

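For 8 members the log2 ratio of CD8-IFNγRKO over control had opposite signs in tumor and LN, with both counting intervals off 0. The higher value lay in tumor for *Gpi1* (0.091 in tumor and -0.078 in LN), *Pfkp* (0.49 and -0.10), *Aldoa* (0.38 and -0.038), *Gapdh* (0.31 and -0.059), *Pgam1* (0.69 and -0.11) and *Ldha* (0.51 and -0.052). It lay in LN for *Hif1a* (-0.28 in tumor and 0.15 in LN) and *Bnip3l* (-0.25 and 0.082). Intervals of counting error are narrow for abundant genes, so that small ratios can lie off 0. The share of all genes that met the same rule is not given here, and the count of 8 is not read as a result about the members. With 1 library per tissue and genotype, the difference between the tissues was not tested.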

How the results depend on the processing

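Of the counts of members past 1.5-fold under the alternatives, 186 stayed within 1.5 times the value reported and 26 did not. By member and setting, 2086 ratios were tallied as the same, 842 as moved and 1 as reversed. With thinned cells 94 were tallied as moved and 72 as the same. The limit for a moved ratio is not given here. For tumor over LN, a limit of 50 CPM left 16 higher and 0 lower members in control cells and 0 lower in CD8-IFNγRKO cells, and cells with a *Mki67* or *Top2a* UMI gave 1 lower member in control cells. For CD8-IFNγRKO over control in tumors, the count of higher members was 4 with thinned cells, 5 with a mean over cells and 5 with a pseudocount of 10 CPM. In LN, cells with a *Mki67* or *Top2a* UMI gave 1 higher and 1 lower member. For the *Tcf7* split of the control tumor, the count of lower members was 9 without the filter on *Cd2*, *Cd8a* and *Cd8b1*, 8 without barcodes with myeloid UMIs, 7 without the 5% of barcodes with most UMIs, 17 with thinned cells, 14 with a mean over cells, 10 in cells without a *Mki67* or *Top2a* UMI, 1 in cells with one and 6 when at least 2 *Tcf7* UMIs were asked for. The count of higher members there was 1 with a pseudocount of 10 CPM, 0 with a limit of 50 CPM and 1 in cells with a *Mki67* or *Top2a* UMI. In the CD8-IFNγRKO tumor 3 members were lower in such cells. For the *Bnip3* split, all UMIs in place of thinned cells gave 5 higher members in the control tumor, no level limit gave 2 lower, and cells with a *Mki67* or *Top2a* UMI gave 1 lower. In the CD8-IFNγRKO tumor 25 were higher in cells without such a UMI and 8 in cells with one. *Pfkfb3* reversed in the *Bnip3* split of the control tumor, with a log2 ratio of -1.01 in cells with a *Mki67* or *Top2a* UMI. The share of all genes past 1.5-fold also moved with the setting, as given above for some of the settings. For the other settings, neither that share nor the number of members tested is given here. These counts alone therefore do not show a change in the members, and they are not read as a result about them. The cause of these changes was not tested.

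No paired analysis was possible because each group was 1 library, and for the same reason leaving out a replicate was not possible. Rare members such as *Vegfa*, *Hk2* and *Egln3* are limited by depth, and the spread between mice within a pool is not known.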

Other observations

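Further hypoxia genes were also higher in TILs with a *Bnip3* UMI. Of the 17 that met the level limit, 6 were higher past 1.5-fold in the control tumor and 5 in the CD8-IFNγRKO tumor, with median log2 ratios of 0.44 and 0.45 and 0 lower in either. Of all genes, 4.17% and 1.79% were higher. *Hilpda* had 0.27 and 0.63, *Plin2* 0.49 and 0.45, and *Mxi1* 0.03 and 0.41. Of the further glycolysis genes, 4 of 21 and 2 of 20 were higher, with medians of 0.02 and 0.08. Of those counted as higher in the control tumor, *Aldoc* (0.68 [-0.12 to 1.41]), *Eno1b* (0.73 [-0.19 to 1.56]) and *Pdp1* (0.61 [-0.24 to 1.38]) had intervals that included 0. The same held for the hypoxia genes *Epas1* (0.73 [-0.19 to 1.56]) and *Hmox1* (0.76 [-0.02 to 1.46]). Intervals off 0 were found for *Pgm1*, *Bsg*, *Ndrg1*, *Fam162a*, *Higd1a* and *Insig2* in that tumor, where *Bsg* lay within 1.5-fold. *Epas1* and *Eno1b* were each at 9.46 CPM in control TILs without a *Bnip3* UMI. They met the level limit only through the cells with one, where they were high. In the *Tcf7* split, 2 of 16 further hypoxia genes were lower past 1.5-fold in the control tumor and 5 of 16 in the CD8-IFNγRKO tumor. Of all genes, 5.11% and 6.8% were lower. *Hmox1*, counted as lower in the CD8-IFNγRKO tumor, was at 7.85 CPM in the *Tcf7* class and met the level limit through the other TILs alone. The medians were -0.02 and -0.30, and 0 were higher, where 4.87% and 7.32% of all genes were. The 2 lower genes in the control tumor were *Hilpda* (-0.76) and *Mxi1* (-0.63), which had -1.18 and -0.87 in the CD8-IFNγRKO tumor.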
